A study of Mus musculus with 22 samples.

Results

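The 10 genes of de novo lipogenesis described here were Srebf1, Mlxipl, Thrsp, Me1, Acly, Acaca, Fasn, Elovl6, Scd1 and Scd2. They were taken by symbol from a table of 23420 genes, and all 10 were found and were among the 14458 genes with enough counts to be tested. RNA was sequenced from inguinal white adipose tissue (IWAT), a subcutaneous fat depot that in female mice also holds the mammary gland. All groups came from female wildtype C57Bl/6 mice. Of the 11 mice, 5 were lean on a chow diet and 6 were obese after 16 weeks on a high-fat diet (HFD). At about 20 weeks of age each mouse was injected in the left inguinal pad with E0771, a breast cancer cell line derived from C57Bl/6, in PBS and Matrigel, and in the right pad with PBS and Matrigel alone. IWAT was collected 2 weeks later. The fat of the left pad, without the tumor, the sheet of fat that covered it and the outermost part of the depot, is called tumor-associated IWAT and the right pad control IWAT, so every control pad came from a tumor-bearing mouse and held Matrigel. The inguinal lymph node was removed. There were thus 22 libraries in 4 groups, with 5 lean control, 5 lean tumor-associated, 6 obese control and 6 obese tumor-associated libraries, and mice are named by the numbers in the sample labels.

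De novo lipogenesis makes fatty acids from carbohydrate carbon. Citrate exported from mitochondria is split to acetyl-CoA by ATP citrate lyase (Acly), acetyl-CoA carboxylase 1 (Acaca) makes malonyl-CoA from it, and fatty acid synthase (Fasn) builds palmitate with NADPH that malic enzyme (Me1) helps to supply. Elovl6 then lengthens palmitate to stearate, and the stearoyl-CoA desaturases Scd1 and Scd2 place the first double bond. Srebf1 encodes SREBP-1, which is activated under insulin, Mlxipl encodes ChREBP, which is activated by glucose metabolites, and Thrsp encodes Spot 14, a small protein that is induced with the lipogenic enzymes. In mouse fat the programme is known to be high on a carbohydrate-rich chow and low on a fat-rich diet.

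Stretches just before a transcription start are shown for 3 of the genes, 1 regulator and 2 enzymes, because SREBP-1 and ChREBP are known to act on such regions. They are RefSeq sequences of GRCm38.p6, on the strand of the gene. Capitals mark 4 short motifs searched on both strands, the E box CACGTG, the sterol regulatory element core TCACNCCAC, the CCAAT box and the GC box GGGCGG, and neighbouring motifs may overlap. The Fasn stretch is chr11:120824548-120824797 (minus strand), the Acly stretch is chr11:100528001-100528250 (minus strand), and the Mlxipl stretches chr5:135089640-135089889 (plus strand) and, before a second start inside the gene, chr5:135106641-135106890 (plus strand). None of them holds an annotated exon base.
Fasn: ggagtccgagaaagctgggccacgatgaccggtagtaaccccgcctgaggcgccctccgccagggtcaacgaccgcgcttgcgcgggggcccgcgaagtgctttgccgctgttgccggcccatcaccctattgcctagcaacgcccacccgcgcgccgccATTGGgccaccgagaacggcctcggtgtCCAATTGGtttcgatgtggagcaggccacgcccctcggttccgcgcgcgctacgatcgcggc
Acly: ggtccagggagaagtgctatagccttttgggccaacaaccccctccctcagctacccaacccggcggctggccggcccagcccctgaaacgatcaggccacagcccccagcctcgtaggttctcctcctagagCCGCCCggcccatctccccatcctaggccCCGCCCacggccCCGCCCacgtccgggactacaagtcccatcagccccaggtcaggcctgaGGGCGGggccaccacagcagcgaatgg
Mlxipl, first start: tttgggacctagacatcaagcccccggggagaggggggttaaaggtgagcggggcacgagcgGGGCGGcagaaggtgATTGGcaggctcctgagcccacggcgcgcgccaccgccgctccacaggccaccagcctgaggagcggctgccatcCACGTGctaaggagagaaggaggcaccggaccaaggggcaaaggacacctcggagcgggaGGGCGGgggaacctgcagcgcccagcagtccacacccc
Mlxipl, second start: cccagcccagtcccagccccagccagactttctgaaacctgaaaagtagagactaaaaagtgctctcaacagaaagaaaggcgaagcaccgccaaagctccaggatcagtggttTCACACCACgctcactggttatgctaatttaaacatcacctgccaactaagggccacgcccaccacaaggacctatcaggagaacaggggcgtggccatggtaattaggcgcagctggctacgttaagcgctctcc
RefSeq entries were found for 8 of the 10 genes, in 12 windows, and Scd1 and Scd2 had none. CACGTG was found in the windows of Mlxipl alone (6.86% of 27025 genes held it), and so was TCACNCCAC (1.22%), the former before the first Mlxipl start and the latter before the second. CCAAT was found for Fasn, Me1, Mlxipl, Srebf1 and Thrsp (37.5% of all genes) and GGGCGG for Acly, Me1, Mlxipl and Srebf1 (35.4%). The only Acaca window lay inside the gene, so it does not show the stretch before the gene. The Me1 window with CCAAT also lay inside its gene. Only 70 bases of the Thrsp window lay before the annotated gene start, and its CCAAT matches lay past them. These matches are a description of letters.

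Each library held between 5759775 and 8598108 counts on genes. The 10 genes took a large share of them in lean IWAT. In lean control IWAT they made up 4.89 to 12.9% of all counts on genes (median 8.43%), in lean tumor-associated IWAT 3.55 to 8.14% (median 4.55%), in obese control IWAT 0.627 to 1.20% (median 0.881%) and in obese tumor-associated IWAT 0.268 to 0.876% (median 0.622%). Scd1 and Fasn accounted for most of it. The adipocyte identity of the tissue was checked with 12 marker genes, among them Adipoq, Plin1 and Pparg. Their summed level ranged from 14380 to 19300 CPM, counts scaled to the size of the library, in lean control, 9080 to 15920 in lean tumor-associated and 16360 to 28890 in obese control IWAT. In obese tumor-associated IWAT it ranged from 2238 to 14450 CPM, and the libraries of mice 4 and 0 stood apart at 2238 and 3877 CPM. Those 2 libraries were also the highest of all in 5 proliferation genes, at 1546 and 1173 summed CPM. In that of mouse 4, fibroblast, endothelial and macrophage markers summed to 1760, 257 and 1702 CPM, each the lowest of its group. In that of mouse 0 they summed to 8265, 423 and 4697.5 CPM. The source of these differences was not tested. The calls of the 10 genes are given with and without the tumor-associated libraries of mice 0 and 4. The calls and levels of the other gene lists in obese tumor-associated IWAT include these libraries. In bulk tissue, fewer cells of a type and less RNA per cell cannot be told apart. Skeletal muscle markers summed to 1977 CPM in the obese control library of mouse 1, with a median of 21.7 CPM in its group, and lymphocyte markers to 397 CPM there and 365 CPM in that of mouse 3, with a median of 7.82 CPM.

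**Figure D1:**
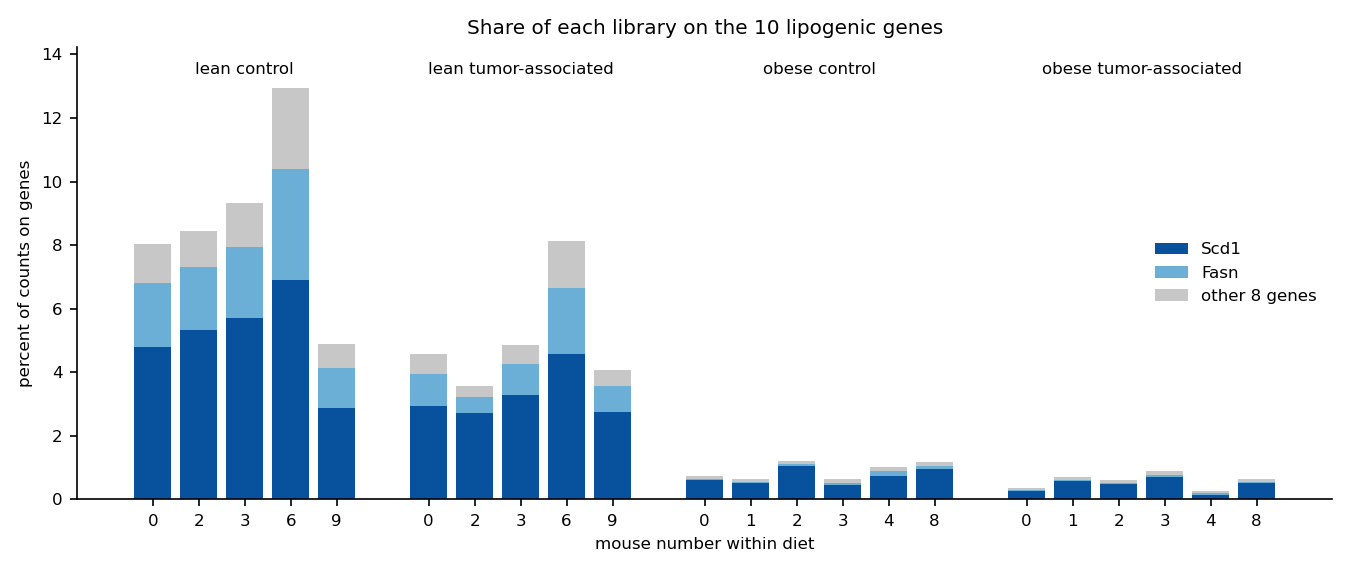
Share of all counts on genes taken by the 10 lipogenic genes in each of the 22 libraries, as stacked bars in percent for Scd1, Fasn and the other 8 genes, ordered by group and mouse. Lean control libraries reach 12.9% and no obese library passes 1.20%.

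The first comparison was that of diet, within control pads and within tumor-associated pads. The study reported larger tumors in the obese than in the lean mice. Diet, obesity and tumor size therefore cannot be told apart in this comparison. All 10 genes were lower in obese than in lean control IWAT in the edgeR test (adjusted p under 0.05), against 7.53% of all tested genes called lower, and no member's obese libraries overlapped with its lean libraries (5.59% of tested genes were lower without overlap). In tumor-associated IWAT all 10 were again lower and again without overlap, against 22.4% of genes called lower, 24.7% called higher and 13.4% lower without overlap. Over the 10 genes the median log2 fold change was -3.58 in control and -3.02 in tumor-associated IWAT, beside 0.04 and 0.03 over all genes tested. The values in each gene follow, in CPM after TMM scaling, a normalisation for library composition, with lean mice in the order 0, 2, 3, 6 and 9 and with gene positions in GRCm38 from GENCODE.

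Among the regulators, Srebf1 (chr11:60199089-60222581, minus strand) showed the smallest diet difference in control IWAT. Its level in lean control IWAT was 475, 365, 462, 652 and 380 CPM, and in obese control IWAT it ranged from 117 to 209 CPM (median 138). It was therefore 3.03-fold lower in obese control IWAT (log2 fold change -1.60, SE 0.22, edgeR adjusted p 6.48e-05) and 2.99-fold lower in obese tumor-associated IWAT. Mlxipl (chr5:135089890-135138382, plus strand) was the least abundant of the 10 genes, with 139, 113, 135, 244 and 118 CPM in lean control IWAT against 22.6 to 36.8 CPM (median 32.6) in obese control IWAT. Mouse 6 was the highest of the lean mice. The difference was 4.76-fold in control IWAT (log2 -2.25, SE 0.38, edgeR adjusted p 4.11e-04) and 5.50-fold in tumor-associated IWAT. Thrsp (chr7:97412938-97417730, minus strand) changed far more than either transcription factor gene. Lean control IWAT held 1472, 927, 1426, 2488 and 1040 CPM of it, and obese control IWAT 31.3 to 100.4 CPM (median 52.7). That was 24.1-fold lower (log2 -4.59, SE 0.52, edgeR adjusted p 1.33e-05), and in tumor-associated IWAT, where lean mice had 585, 261, 576, 1363 and 649 CPM and obese mice 5.14 to 45.4 CPM (median 14.5), it was 35.2-fold lower (log2 -5.14, SE 0.53, edgeR adjusted p 2.94e-06).

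The genes that supply substrate and reducing power differed in how far they fell. Me1 (chr9:86581371-86695953, minus strand) was at 1023, 1271, 1523, 3122 and 783 CPM in lean control IWAT and at 149 to 409 CPM (median 232) in obese control IWAT. This made it 6.15-fold lower (log2 -2.62, SE 0.43, edgeR adjusted p 3.82e-04), and 6.65-fold lower in tumor-associated IWAT. Acly (chr11:100476353-100528000, minus strand), the cytosolic source of acetyl-CoA, had 3710, 2832, 3767, 8344 and 2036 CPM in lean control IWAT but a narrow 194 to 243 CPM (median 213) in obese control IWAT. It was 19.3-fold lower there (log2 -4.27, SE 0.38, edgeR adjusted p 5.65e-07) and 8.74-fold lower in tumor-associated IWAT. The spread of Acly among mice was also larger in lean IWAT, with a coefficient of variation of 59.4% in lean control and 8.36% in obese control libraries.

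The core of the pathway, carboxylation and synthesis, showed large and well separated differences. Acaca (chr11:84129672-84401651, plus strand) was at 3081, 3549, 4199, 6527 and 2247 CPM in lean control IWAT and at 126 to 194 CPM (median 170.0) in obese control IWAT. It had the lowest adjusted p of the 10 genes, with a 23.9-fold difference in control IWAT (log2 -4.58, SE 0.29, edgeR adjusted p 5.34e-09) and a 13.5-fold difference in tumor-associated IWAT (log2 -3.75, SE 0.28, edgeR adjusted p 1.23e-07). Fasn (chr11:120805846-120824547, minus strand) was the most abundant gene after Scd1. Lean control IWAT held 20100, 19754, 23253, 37445 and 12513 CPM of Fasn and obese control IWAT 405 to 1625 CPM (median 649). The lowest lean library was thus far above the highest obese one, that of mouse 4. Fasn was 27.95-fold lower in obese control IWAT (log2 -4.80, SE 0.41, edgeR adjusted p 3.62e-07) and 23.4-fold lower in obese tumor-associated IWAT (log2 -4.55, SE 0.40, edgeR adjusted p 5.31e-07).

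Elovl6 (chr3:129532355-129638495, plus strand) had the largest diet difference of the 10 genes in control IWAT, and the second lowest log2 fold change of all 14458 genes tested. Its level was 1118, 1470, 1666, 3609 and 594 CPM in lean control IWAT and 29.5 to 51.8 CPM (median 33.5) in obese control IWAT, which was 47.2-fold lower (log2 -5.56, SE 0.55, edgeR adjusted p 2.82e-06). In tumor-associated IWAT the lean mice had 533, 206, 627, 1864 and 343 CPM and the obese mice 31.2 to 113 CPM (median 48.5), a 12.6-fold difference. The desaturases moved less. Scd1 (chr19:44394455-44407879, minus strand) was at 47956, 53764, 59762, 73437 and 28456 CPM in lean control IWAT and still at 4160 to 10298 CPM (median 6748) in obese control IWAT, a 7.41-fold difference (log2 -2.89, SE 0.36, edgeR adjusted p 2.38e-05), with 7.53-fold in tumor-associated IWAT. Scd2 (chr19:44293674-44306864, plus strand) was at 1195, 901, 1145, 2179 and 437 CPM in lean control IWAT and at 155 to 306 CPM (median 202) in obese control IWAT. It was 5.31-fold lower there (log2 -2.41, SE 0.36, edgeR adjusted p 1.32e-04) but 2.88-fold lower in tumor-associated IWAT (log2 -1.53, SE 0.35, edgeR adjusted p 0.00145).

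**Figure D2:**
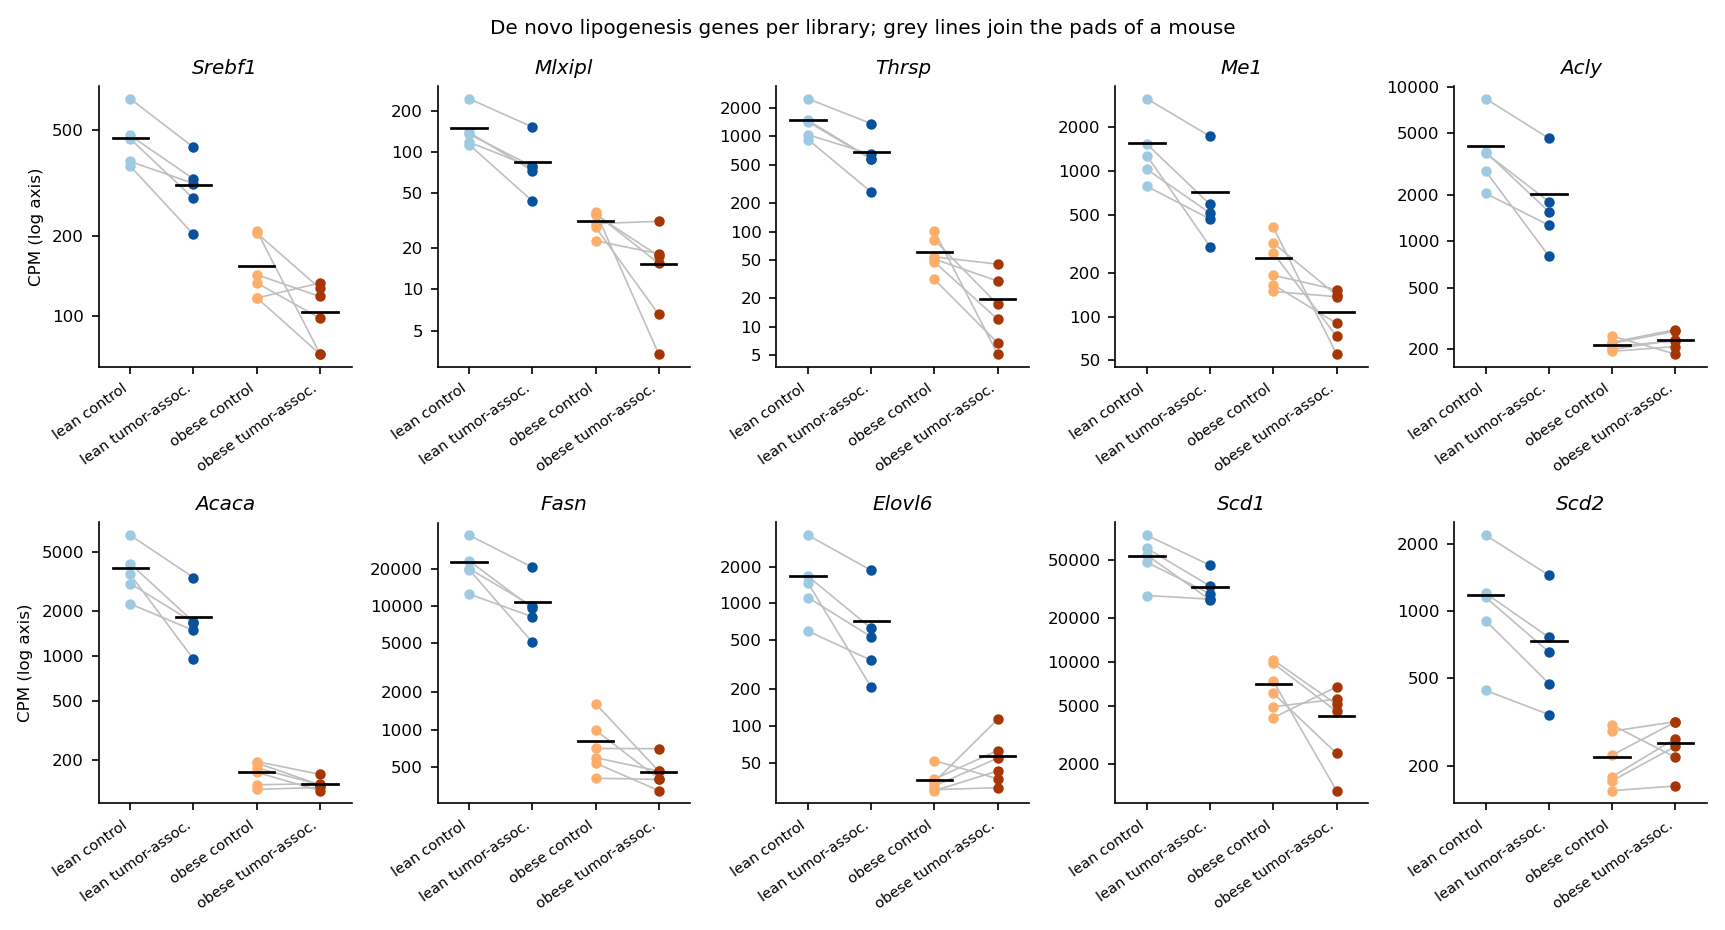
Level of each of the 10 genes in CPM on a log axis, with 1 point per library in the 4 groups, grey lines joining the pads of a mouse and bars at group means. In every panel the lean points of a pad lie above all obese points of that pad.

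Mice kept their order across genes in lean IWAT. Lean mouse 6 was the highest of its group for 10 of 10 genes in both pads, lean mouse 9 the lowest of the control pads for 7 and lean mouse 2 the lowest of the tumor-associated pads for 9. In obese IWAT the order differed among genes. Mouse 4 was the highest of the obese control pads for 7 genes, and its tumor-associated pad was the lowest for 5 genes but the highest for 3, Acaca, Elovl6 and Scd2. As deviations from group means, the 45 pairs of these genes had a median Pearson r of 0.909 over the 10 lean libraries (0.676 to 0.992) and of 0.547 over the 12 obese libraries (-0.70 for Mlxipl and Elovl6 up to 0.891). Over all 22 libraries the genes outside the set most like Fasn were Agpat2 (r 0.907), Nsdhl (0.900), Cyb5b (0.897), Aacs (0.874) and Pmvk (0.864). These correlations share libraries, mice and scaling, and are a description.

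Per kilobase of exon, which allows genes to be set beside each other, Scd1 led in all 4 groups, with mean levels of 10768, 6601, 1454 and 876 CPM per kb in lean control, lean tumor-associated, obese control and obese tumor-associated IWAT. Fasn was next at 2066, 979 and 73.9 CPM per kb in the first 3 groups, but the fourth gene in obese tumor-associated IWAT at 41.8, where Scd2 (46.5) and Acly (43.5) lay just above it within their spread. Elovl6 moved from the sixth place in lean control IWAT (263 CPM per kb) to the lowest in obese control IWAT (5.57), next to Mlxipl (5.68). Differences between these neighbours were smaller than their SD.

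The other genes of the pathway were less uniform. Of a list of 32 genes of citrate export, NADPH supply, elongation, desaturation and control, 29 were tested, and in obese against lean control IWAT 13 were lower, none higher and 16 not called, with a median log2 fold change of -0.35. The largest differences were in Acss2, which makes acetyl-CoA from acetate (-3.71, SE 0.46, edgeR adjusted p 2.51e-05), Acacb, the mitochondrial acetyl-CoA carboxylase (-2.995), Aacs, which activates acetoacetate (-2.61), and Mid1ip1, a partner of Spot 14 and acetyl-CoA carboxylase (-2.05). The citrate carrier gene Slc25a1 (-1.98), Insig1 (-1.52), the desaturases Fads1 (-1.26) and Fads2 (-1.25), Pgd of the pentose phosphate pathway (-0.90) and Elovl5 (-0.37) were also lower. G6pdx, the first enzyme of the pentose phosphate pathway (0.17, SE 0.19), and Nr1h3, which encodes the nuclear receptor LXR alpha (0.21, SE 0.16), were not called. In tumor-associated IWAT the diet comparison had 11 of the 29 lower and 5 higher, where 22.4% of all tested genes were called lower and 24.7% higher. Acss2 (-3.84), Acacb (-3.03) and Slc25a1 (-2.22) were lower there and Trib3, a stress-induced pseudokinase, higher (2.69). Insig1 (-1.34), Fads1 (-1.005) and Fads2 (-1.29) were lower there too, while Pgd (-0.49), Elovl5 (-0.26), G6pdx (0.09) and Nr1h3 (0.01) did not pass the test. Cholesterol synthesis genes, targets of the related SREBP-2, had 10 of 14 lower and none higher in obese control IWAT (median -1.03). In obese tumor-associated IWAT 2 of them, Fdft1 and Pmvk, were lower and 1 was higher (median of the list -0.23). Triglyceride assembly genes had 2 of 10 lower in control IWAT, Agpat2 and Gpam (median of the list -0.10), and 6 of 10 lower in tumor-associated IWAT (median -0.67).

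Marker genes moved with diet as well. In control IWAT, of the 12 adipocyte markers 2 were lower (Cfd, Retn) and 2 higher (Cidec, Lep), with a median log2 fold change of -0.10. Mean levels were higher in obese than in lean control IWAT for Adipoq, Cidec, Lipe, Fabp4, Plin4 and Lep. They were lower for Plin1, Pnpla2, Cfd, Retn, Pparg and Cebpa. The summed level therefore depended on the markers summed, with Lep alone at a mean of 685 CPM in lean and 4184 CPM in obese control IWAT. Brown and beige adipocyte markers had 6 of 8 lower (median -1.94), led by Ucp1 (-4.94), which was at 5.59 to 44.1 CPM in lean and 0.144 to 1.31 CPM in obese control IWAT. Mammary epithelial markers had 4 of 8 lower in control IWAT (summed level 859.5 to 1330 CPM in lean, 311 to 786 in obese) and 8 of 8 lower in tumor-associated IWAT (801 to 1554 in lean, 171 to 398 in obese), with Wap at 0 in lean control and in all obese libraries. Of 10 macrophage markers Cd68 was higher in obese control IWAT, and Cd68, Emr1, Fcgr1 and Itgam were higher in obese tumor-associated IWAT. The skeletal muscle genes tested, Acta1 and Tnnt3, were called higher in obese control IWAT, where the library of mouse 1 stood apart. Acta1 was at 8.746 to 382.1 CPM in obese control (median 19.99) and at 1.224 to 6.585 CPM in lean control IWAT, without overlap. Tnnt3 overlapped, at 0.6528 to 166.8 CPM (median 1.248) in obese control and 0.6781 to 0.7657 CPM in lean control IWAT. In tumor-associated IWAT 5 of 12 adipocyte markers were lower (Cfd, Retn, Plin1, Pparg, Cebpa) and Lep higher, and all 5 proliferation genes were higher (median 2.47). Brown and beige markers had 6 of 8 lower there too (Cidea, Cox8b, Dio2, Ppargc1a, Prdm16 and Ucp1, median of the list -1.74). Of the fibroblast markers Dcn (-1.31) and Lum (-1.11) were lower, and of the endothelial markers Tek (-0.91) and Vwf (-0.82). Their part in the lipogenic differences was not tested.

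**Figure D3:**
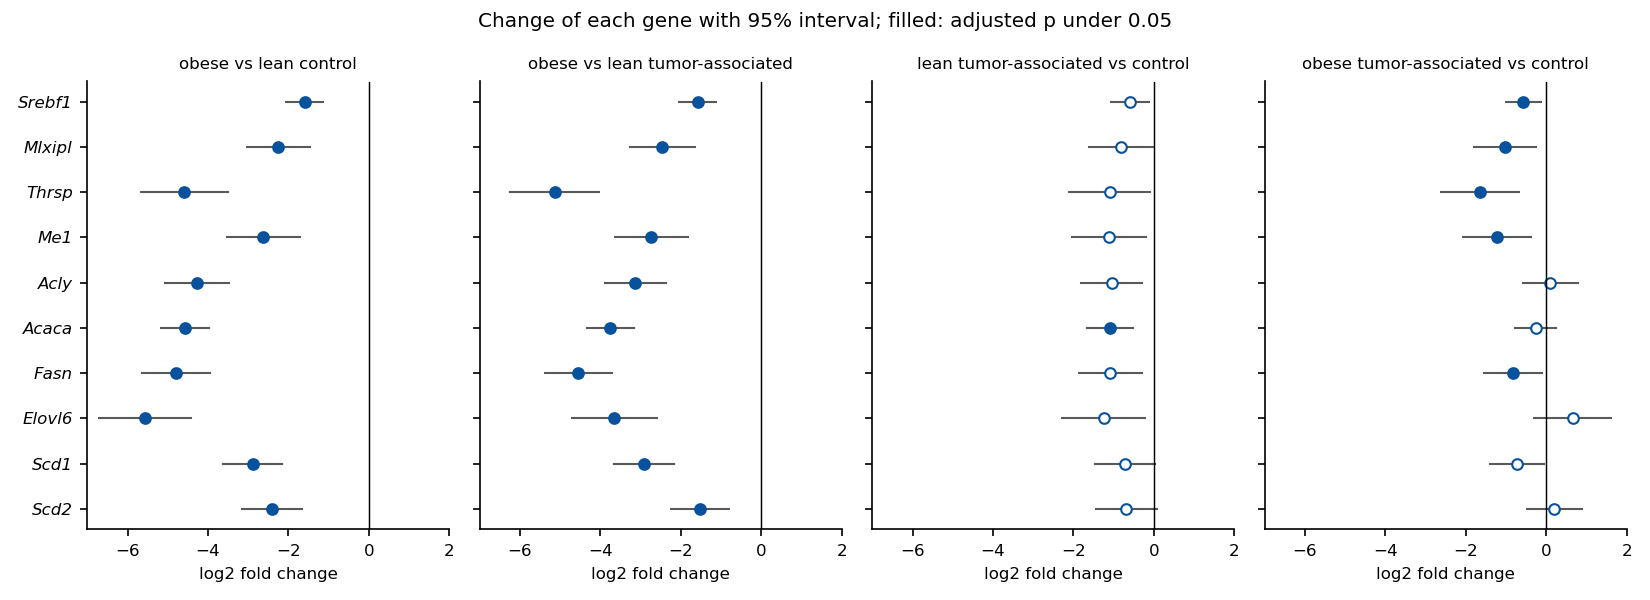
Log2 fold change of each of the 10 genes with its 95% interval in the 4 comparisons of the edgeR fit, filled where the adjusted p is below 0.05. The diet comparisons lie between -1.53 and -5.56 and all are filled, and those of tumor-associated with control pads lie between -1.65 and 0.66.

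The second comparison was between pads of the same mice, tumor-associated against control, first in lean mice. All 10 genes had lower values in the tumor-associated pad in 5 of 5 lean mice, with log2 fold changes from -0.59 (Srebf1) to -1.24 (Elovl6) and a median of -1.06 beside 0.01 over all genes. Only Acaca passed the test in the fit without pairing (log2 -1.09, SE 0.27, edgeR adjusted p 0.0257), against 0.913% of genes called lower, and its call was lost in 6 of the 22 fits that left out 1 library. In the fit with the mouse as a block 5 of 10 did, against 1.15% of genes. These were Acly (-1.14, edgeR adjusted p 0.00316), Acaca (-1.12, 0.00408), Scd2 (-0.67, 0.0241), Elovl6 (-1.39, 0.0274) and Fasn (-1.14, 0.0414). With the block and without the obese tumor-associated libraries of mice 0 and 4, which enter the shared estimate of spread, 9 of 10 passed (all but Scd1), against 5.06% of genes. Without these libraries and without the block, Acaca alone passed (log2 -1.11, edgeR adjusted p 0.0204), with 438 of all genes called lower. Leaving out these libraries was chosen after seeing the data.

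In lean mice the control and tumor-associated values overlapped for all 10 genes. Fasn, for example, was at 20100, 19754, 23253, 37445 and 12513 CPM in the control pads and at 10014, 5099, 9637, 20628 and 8211 CPM in the tumor-associated pads of the same mice. Mouse 6 in its tumor-associated pad was above mice 0, 2 and 9 in their control pads. Acly, at 1800, 798, 1547, 4625 and 1267 CPM in tumor-associated pads, and Acaca, at 1681, 954, 1699, 3385 and 1488 CPM, had their largest fall in mouse 2 (log2 -1.83 and -1.90) and their smallest in mouse 9 (-0.68 and -0.59). Scd1, at 29223, 26556, 33011, 45798 and 26876 CPM in tumor-associated pads, hardly differed between the pads of mouse 9 (log2 -0.08).

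Other genes in lean tumor-associated IWAT showed few calls. Of the 29 other pathway genes Aacs was lower (-0.85, edgeR adjusted p 0.0435) and Elovl1, an elongase of very long chains, higher (0.48, edgeR adjusted p 0.0438), with a median of -0.21. Acacb (-1.17), Slc25a1 (-1.07), Acss2 (-0.99), Insig1 (-0.94), Pgd (-0.55), G6pdx (-0.33), Nr1h3 (-0.33), Fads1 (-0.21), Elovl5 (-0.13) and Fads2 (-0.09) were not called. None of the 10 triglyceride genes (median -0.63) or the 12 adipocyte markers (median -0.56) was called in the fit without the block, and 1 of 14 cholesterol genes, Fdft1, was lower. Macrophage markers were higher for 8 of 10, from a summed 776 to 1583 CPM in control to 1713 to 3687 CPM in tumor-associated pads, and fibroblast markers for 3 of 6 (Col1a1, Col1a2, Thy1). Their part in the lipogenic values was not tested.

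In obese mice the 10 genes fell on both sides of the test threshold, and the genes called and not called were not tested against each other. Srebf1, Mlxipl, Thrsp, Me1 and Fasn were lower in tumor-associated IWAT, which is 5 of 10 against 27.7% of all genes called lower, and none was higher, against 26.8% of genes. The block called 5, the same genes, against 27.6%. Thrsp fell most, from 31.3 to 100.4 CPM (median 52.7) in control to 5.14 to 45.4 CPM (median 14.5) in tumor-associated pads, lower in 6 of 6 mice (log2 -1.65, SE 0.46, edgeR adjusted p 0.00572). Me1 fell from 149 to 409 CPM (median 232) to 55.2 to 153 CPM (median 113), also in 6 of 6 mice (log2 -1.22, SE 0.41, edgeR adjusted p 0.0161). Both genes overlapped between pads. Mlxipl, at 22.6 to 36.8 CPM in control and 3.38 to 31.3 CPM (median 16.5) in tumor-associated pads, was lower in 5 of 6 mice (log2 -1.02, SE 0.37, edgeR adjusted p 0.0238). Srebf1, at 117 to 209 CPM in control and 72.2 to 133 CPM (median 109) in tumor-associated pads, was lower in 5 of 6 mice (log2 -0.57, SE 0.21, edgeR adjusted p 0.0255). Mouse 1 was the exception in both. Fasn was lower in 6 of 6 mice (log2 -0.82, SE 0.34, edgeR adjusted p 0.0488), from 405 to 1625 CPM (median 649) to 321 to 702 CPM (median 431), but in mice 1 and 3 the pads differed by less than 0.05 on the log2 scale, and the call was lost in 13 of the 22 fits that left out 1 library.

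The remaining 5 genes were not called in obese mice. Acly was at 194 to 243 CPM in control and 186 to 267 CPM (median 228) in tumor-associated pads, and lower in 1 of 6 mice (log2 0.10, 95% interval -0.58 to 0.79). Elovl6 was at 29.5 to 51.8 CPM and 31.2 to 113 CPM (median 48.5), and Scd2 at 155 to 306 CPM and 163 to 317 CPM (median 256), each lower in 1 of 6 mice. Their log2 fold changes were 0.66 (95% interval -0.29 to 1.62) and 0.20 (-0.48 to 0.89). The highest Elovl6 value, 113 CPM, was that of mouse 4. Acaca, at 126 to 194 CPM and 124 to 159 CPM (median 135), was lower in 4 of 6 mice (log2 -0.26, 95% interval -0.78 to 0.25). Scd1, at 4160 to 10298 CPM and 1319 to 6746 CPM (median 4861), was lower in 4 of 6 (log2 -0.73, 95% interval -1.41 to -0.05, edgeR adjusted p 0.0639).

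The libraries of mice 0 and 4 weighed on these calls. Without them 1 of the 10 genes was called, Thrsp (log2 -1.24, edgeR adjusted p 0.0318), against 23.1% of genes called lower. With the mouse as a block as well, 3 were called, Thrsp (-1.29), Me1 (-0.64) and Mlxipl (-0.62), against 20.2%. Elovl6 was then at 0.25 rather than 0.66 in the fit without the block. The diet calls did not rest on these libraries, since without them 10 of 10 genes were called lower in both pads.

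Adipocyte markers were lower in the same obese libraries, 11 of 12 (median -1.26), among them Adipoq (-1.52, from 1472 to 2785 CPM in control to 169 to 1207 CPM in tumor-associated pads), Pparg (-1.24) and Plin1 (-1.19). Triglyceride genes were lower for 9 of 10 (median -1.21), mammary epithelial markers for 7 of 8 (median -1.64), endothelial markers for 4 of 5 (Cdh5, Kdr, Pecam1, Tek) and brown and beige markers for 3 of 8 (Cox8b, Ppargc1a, Prdm16). Macrophage markers were higher for 9 of 10, at a summed 1140 to 1583 CPM in control and 1702 to 4883 CPM in tumor-associated pads, and proliferation genes for 5 of 5 (median 2.89). Of the 29 other pathway genes 11 were lower and 6 higher, where 27.7% of all tested genes were called lower and 26.8% higher. Prkaa2, a catalytic subunit of AMP-activated kinase (-1.39), Slc25a1 (-1.30), Acacb (-1.20), Acss2 (-1.12) and Nr1h3 (-0.52) were lower and Trib3 (1.88) higher. Insig1 (-0.76), G6pdx (-0.41), Pgd (-0.14), Fads2 (-0.12), Elovl5 (-0.02) and Fads1 (0.05) were not called. Cholesterol genes went the other way, with 6 of 14 higher and 1, Hmgcs1, lower (median 0.37). The part of the marker changes in the lipogenic values was not tested.

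To set the genes beside the adipocyte signal, each was also taken relative to the mean log2 level of the 12 adipocyte markers in its library, a measure without a test. Between diets in control IWAT all 10 were lower without overlap on this scale (5.41% of all genes were), from -1.68 (Srebf1) to -5.40 (Elovl6). In tumor-associated IWAT 5 of 10 were lower without overlap, Mlxipl, Thrsp, Acaca, Fasn and Scd1, against 2.3% of genes. Without the obese libraries of mice 0 and 4 it was 9 of 10, all but Scd2, against 6.09% of genes, and Scd2 moved from -0.41 to -1.19. Between the pads of obese mice the relative level was higher without overlap for 4 of 10, Srebf1 (0.98), Acly (1.65), Acaca (1.31) and Elovl6 (2.11), but so was it for 44.7% of all genes. Without mice 0 and 4 the same 4 genes were higher without overlap, against 44.9% of genes, at 0.55, 1.09, 0.62 and 1.14. The median over all genes was 1.54 and over the 10 genes 0.91, with 7 of the 10 below the former. Without those mice the medians were 0.86 and 0.56, and again 7 of 10 were below. In lean mice all 10 overlapped, from -0.09 (Srebf1) to -0.90 (Elovl6), and all 10 lay below the median over all genes of 0.53. All genes of a library shift alike on this scale. The counts below the median over all genes therefore do not bear on the adipocyte signal.

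**Figure D4:**
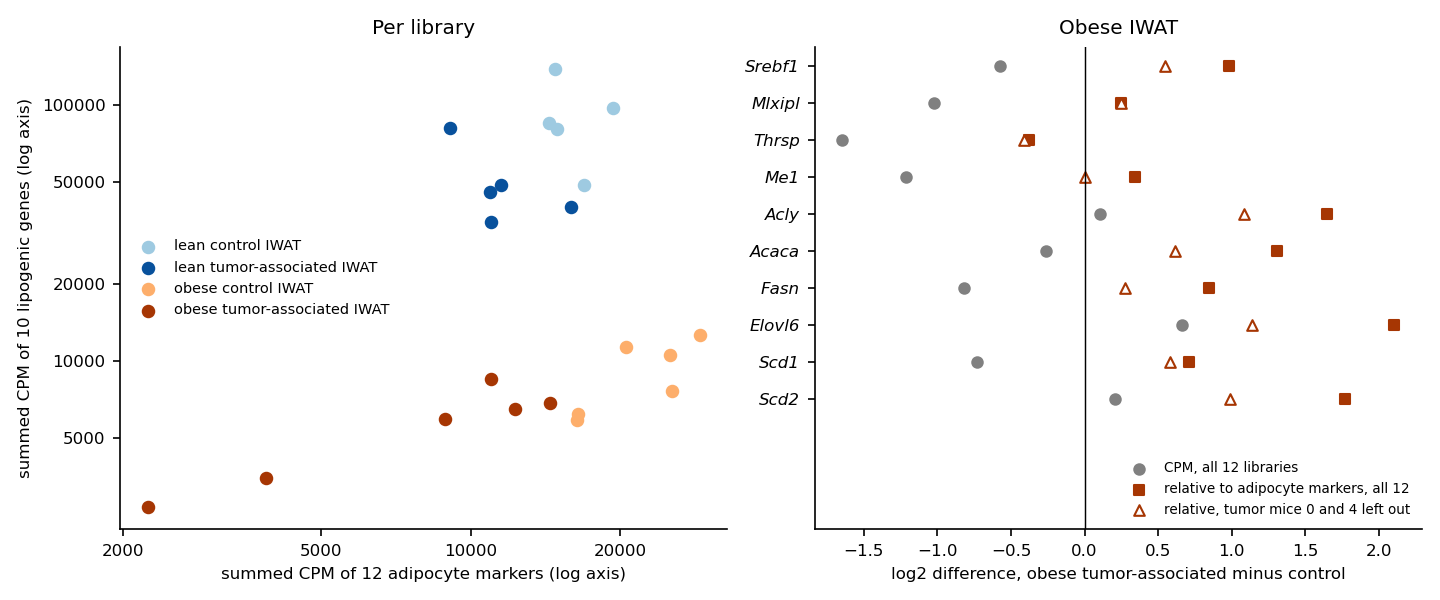
Left, summed CPM of the 10 genes against summed CPM of the 12 adipocyte markers per library, both on log axes, coloured by group. Right, obese tumor-associated minus control log2 difference per gene as CPM (circles), relative to adipocyte markers (squares) and relative without mice 0 and 4 (open triangles). At like marker levels lean libraries lie above obese ones, and the 2 obese libraries lowest in markers are at 2238 and 3877 CPM.

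The third comparison asked whether the pad difference itself differed between lean and obese mice. The obese mice also had the larger tumors in the study, so diet, obesity and tumor size cannot be told apart here either. In the fit without pairing none of the 10 genes was called higher in obese minus lean change, against 2.58% of genes, and none lower, though 3 (Elovl6, Acly and Acaca) had an unadjusted p under 0.05 and DESeq2 called 1. The largest values were 1.91 for Elovl6 (95% interval 0.50 to 3.31, edgeR adjusted p 0.0723), 1.15 for Acly (0.13 to 2.16, 0.114), 0.88 for Scd2 (-0.14 to 1.90, 0.208) and 0.83 for Acaca (0.07 to 1.58, 0.123). With the mouse as a block 3 of 10 were called, against 2.17% of genes, namely Acly (1.23, edgeR adjusted p 0.0265), Elovl6 (1.95, 0.0370) and Scd2 (0.89, 0.0393), and Acaca was at 0.87 (0.0521). Each had fallen in 5 of 5 lean mice and, among obese mice, was higher in 5 of 6 for Acly, Elovl6 and Scd2. With the block and without mice 0 and 4, Acly alone was called (1.35, edgeR adjusted p 0.0134), against 2.0% of genes, with Elovl6 at 1.61 (0.0515) and Scd2 at 0.83 (0.0522). For the other 6 genes the difference lay between -0.55 (Thrsp) and 0.25 (Fasn) in the fit without pairing. Of the cholesterol list 3 of 14 were called higher, among them Sqle (1.63) and Fdps (1.34), and of the other pathway genes none. The comparisons within and between diets share their libraries and are not independent of each other.

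The ratio of Scd2 to Scd1 tested whether the 2 desaturase genes kept their proportion. Scd2 was at 2.49, 1.68, 1.92, 2.97 and 1.54% of Scd1 CPM in lean control IWAT (mice 0, 2, 3, 6 and 9) and at 2.59, 1.77, 1.97, 3.14 and 1.27% in lean tumor-associated IWAT. Each lean mouse had nearly the same ratio in both pads (mean log2 difference -0.003, exact permutation p = 1, smallest possible 0.0625). In obese IWAT it ranged from 1.76 to 5.39% (median 3.06%) in control and from 2.93 to 24.0% (median 5.01%) in tumor-associated pads. The 24.0% was that of mouse 4 and the next value, 11.2%, that of mouse 0. In tumor-associated IWAT the ratio was higher in obese mice (log2 difference 1.69, two-sided exact permutation p = 0.00866, adjusted over the 5 comparisons 0.0433), and 5 of 6 obese libraries lay above the highest lean one. Without mice 0 and 4 the log2 difference was 1.04 (exact permutation p = 0.0318, not adjusted over the 5 comparisons). It did not pass in control IWAT (0.63, exact permutation p = 0.0520, adjusted 0.130), between the pads of obese mice (1.06, higher in 4 of 6 mice, exact permutation p = 0.125, adjusted 0.156) or for the obese minus lean change (1.07, exact permutation p = 0.0866, adjusted 0.144). The values for the obese pads and for the obese minus lean change include mice 0 and 4. In obese mice 1, 2, 3 and 8 Scd2 was at 3.14, 1.76, 5.39 and 2.97% of Scd1 in control pads. Their tumor-associated pads were at 2.93, 5.34, 4.68 and 4.27%.

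**Figure D5:**
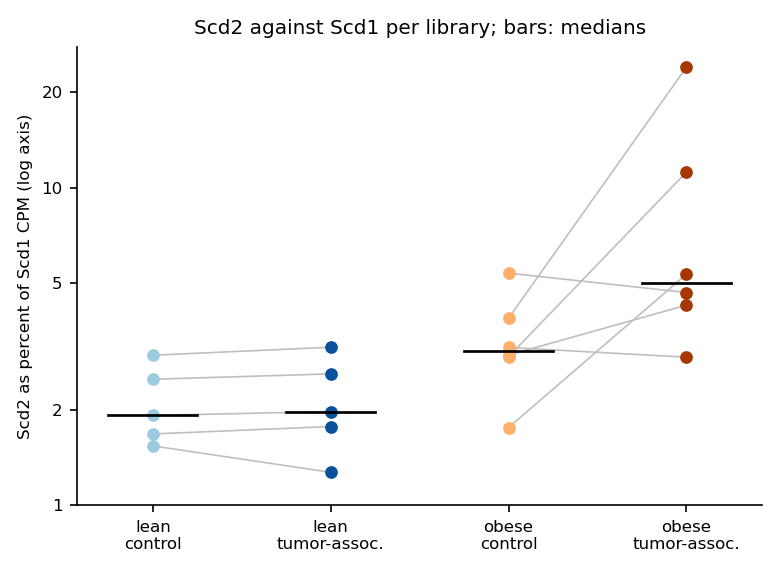
Scd2 as a percentage of Scd1 CPM in each library on a log axis, by group, with bars at group medians of 1.92, 1.97, 3.06 and 5.01%. The obese tumor-associated libraries of mice 4 (24.0%) and 0 (11.2%) lie above all others.

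The order of group means was the same for Fasn, Srebf1, Mlxipl, Thrsp, Me1, Acaca and Scd1, falling from lean control through lean tumor-associated and obese control to obese tumor-associated IWAT. For each of them the pads overlapped within both diets. In the fit without the block only Acaca was called between lean pads, and Acaca and Scd1 were not called between obese pads. For Fasn the mean was 22613 ± 9177 CPM (SD, n = 5) in lean control pads, then 10718 ± 5868 (SD, n = 5), 809 ± 446 (SD, n = 6) and 457 ± 131 CPM (SD, n = 6). Acly, Elovl6 and Scd2 had their lowest mean in obese control IWAT, at 214 ± 17.9, 35.8 ± 8.31 and 220 ± 63.4 CPM (SD, n = 6), followed by the obese tumor-associated pads at 230 ± 31.1, 56.8 ± 29.8 and 254 ± 59.1 CPM (SD, n = 6). Those neighbours in the order overlapped for all 3 genes. Where counting did not use strand, reads of genes that overlap Acaca (Gm11437), Srebf1 (Rai1), Mlxipl, Me1 and Elovl6 (antisense transcripts) cannot be told apart from theirs.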

How the data were processed

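RNA from IWAT was depleted of ribosomal RNA and sequenced. Per the labels and the study's methods, reads were checked with FastQC, filtered with prinseq, aligned to mm10 with STAR 2.4.0f and counted per gene with HTSeq. The authors deposited raw counts per gene symbol; the gene annotation, the strand setting and other details are not given in the sources used here. Reads without a gene (38.5 to 48.8% of a library) were left out. The depth was 5759775 to 8598108 counts on genes per library (median 6953882).

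Groups and mouse numbers came from the labels. Counts were tested with edgeR 4.0.16 (quasi-likelihood, R 4.3.3), with TMM scaling and the filterByExpr filter, in 1 fit of all 22 libraries and 4 groups, with Benjamini-Hochberg adjustment over 14458 of 23420 genes and a threshold of 0.05. Log2 CPM used a prior count of 2. Group overlap was read from CPM per library. The Scd2 to Scd1 ratio was tested by two-sided exact permutation. Between diets and for the obese minus lean change this was done in scipy 1.17.1. Between pads the permutation flipped the sign of the change in each mouse. The steps were tested on simulated data. Exon lengths and promoters were read from annotation of GRCm38, the assembly that mm10 names.

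Both pads came from the same mouse, so the mouse numbers pair libraries within a diet. Deviations of the pads of a mouse from their group means correlated with a median r of 0.508 in lean (0.112 to 0.626) and 0.168 in obese mice (-0.072 to 0.640). Alternatives were DESeq2 1.42.0, which the study itself used, other scalings and filters, a fit of only the groups compared, a block for the mouse, and leaving out single libraries; leaving out the obese tumor-associated libraries of mice 0 and 4 together was chosen after seeing the data. The genes named are the 10 members, 10 fixed genes and the 4 largest changes of the pathway list, and called members of the other lists; a few marker genes and the genes called in a list with 5 or fewer calls were named after their values were seen. Some genes of the cholesterol list are not reported here by name. The genes and lists were chosen with earlier results of these data known.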

Additional observations from a re-analysis of the deposited data

Results flagged for a closer look

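Mlxipl in lean control IWAT had 1 library away from the others. That of mouse 6 was at 7.933 on the log2 CPM scale, with a gap to the next library of 0.734 of the group's range. It was the only such case among 44 groups tested for the 10 genes and the Scd2 to Scd1 ratio, where chance gives about 1 in 20. The same mouse was the highest of its group for 10 of 10 genes in both pads.

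The change from control to tumor-associated IWAT differed between lean and obese mice for 3 genes when the mouse was a block in the edgeR fit. The obese minus lean change on the log2 scale was 1.232 for Acly (adjusted p 0.0265), 1.948 for Elovl6 (adjusted p 0.0370) and 0.8931 for Scd2 (adjusted p 0.0393). None of these passed in the fit without the block (adjusted p 0.114, 0.0723 and 0.208), and without the obese tumor-associated libraries of mice 0 and 4 Acly alone passed with the block (1.35, adjusted p 0.0134).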

How the results depend on the processing

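The 10 calls in each diet comparison were made in every alternative run, with 10 in each fit that left out a library. Between pads, lean mice had 1 member called, but 3 with DESeq2, 0 with the groups compared alone, 5 with the replicate block, 9 with the block and obese tumor-associated mice 0 and 4 left out, and 0 to 5 with each library left out (0 without lean control mouse 3 or 6 or lean tumor-associated mouse 0, 2, 3 or 9, and 5 without lean tumor-associated mouse 6). Obese mice had 5, but 3 with the groups compared alone, 1 without mice 0 and 4, 3 with the block and without them, and 2 to 6 with each library left out (2 without tumor-associated mouse 0, 3 without control mouse 4 or 8 or tumor-associated mouse 4). For the obese minus lean change the count was 0, but 1 with DESeq2, 3 with the block, 1 with the block and without mice 0 and 4, and 0 to 3 with each library left out (3 without lean tumor-associated mouse 6, 1 without obese tumor-associated mouse 1). The replicate block, or pairing by mouse, changed no other call. The causes were not tested.

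The direction of the obese minus lean change turned for genes near 0. Me1 was at 0.0101 with the replicate block, 0.14 without mice 0 and 4 and 0.58 with both, Mlxipl at 0.20 and 0.26 and Scd1 at 0.33 and 0.36 without mice 0 and 4 and with the block added. With each library left out the range was -0.0043 to 0.63 for Fasn, -0.54 to 0.51 for Me1, -0.53 to 0.11 for Mlxipl, -0.20 to 0.16 for Scd1 and -0.13 to 0.17 for Srebf1. The log2 Scd2 to Scd1 ratio ranged from -0.025 to 0.065 between lean pads, 0.75 to 1.32 between obese pads, 0.47 to 0.80 between diets in control and 1.32 to 1.93 in tumor-associated IWAT, and 0.75 to 1.32 for the obese minus lean change. Over all genes, lean pads had 605 genes called, but 918 with DESeq2, 1437 with the groups compared alone, 1175 without mice 0 and 4, 1910 with the block and without them, and 183 to 952 with each library left out. The obese minus lean change had 711, but 2365 with DESeq2, 18 without the filter, 199 without mice 0 and 4, and 1 to 3568 with each library left out. The diet comparison in control IWAT had 2468, and 1606 without lean control mouse 6. With upper quartile scaling it had 1068 genes higher and 1446 lower, beside 1380 and 1088, and lean pads 382 and 199, beside 473 and 132.

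With 5 or 6 mice a group, fold changes of the 10 genes between pads had standard errors of 0.21 to 0.50 on the log2 scale, so a gene that missed the threshold may still have changed.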
